A study of Mus musculus with 9 samples.

Results

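Metallothioneins are small, cysteine-rich proteins that bind zinc, copper and cadmium, and in the liver their genes are switched on by zinc, glucocorticoids and inflammation. The transcription factor MTF1 senses free zinc and binds metal response elements in the promoters of the metallothionein genes and of the zinc exporter gene Slc30a1. Proteins of the Slc30 family move zinc or manganese out of the cytosol and those of the Slc39 family bring metals in, and Slc39a14 is a hepatocyte importer of zinc, manganese and iron that is induced by interleukin-6. The 7 genes described here are the metallothionein genes Mt1 and Mt2, Mtf1, the exporter genes Slc30a1 and Slc30a10, and the importer genes Slc39a14 and Slc39a8, taken by symbol from 23444 rows.

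The series, whose title concerns Cdk4 and fat accumulation in the aging liver, holds 9 RNA sequencing libraries from livers of C57Bl6 mice. Of these, 3 came from mice 2 months old on standard chow (young), 3 from mice 20 to 22 months old on the same chow (aged), and 3 from mice of that older age whose chow held PD-0332991 during the last 2 weeks (treated). PD-0332991, also called palbociclib, inhibits the cell cycle kinases CDK4 and CDK6. Its amount is labelled 450mg/k, a unit left as written, and the labels state neither the sex of the mice nor the dose eaten. Values are TPM, a relative transcript abundance corrected for transcript length, so levels of different genes can be compared but the depth behind them is unknown. The selection rule reads no value, but the 7 genes were put forward with earlier results of these data known, in which Mt1 and Mt2 had been selected on their TPM values in these libraries. Their levels are therefore a description, and the adjusted p-values, taken over all 10161 genes tested, say only which side of a common threshold each gene lay on.

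The rows of a library held 53.1% to 57.7% of its TPM, and 9543 to 9989 genes reached 1 TPM. The summed level of 11 hepatocyte markers lay between 21719 and 27218 TPM, with Alb listed at 0 in all 9 libraries. Aged replicate 3 lay nearer to the young libraries than the other aged libraries on the first principal component (-13.3, against 12.4 and -2.49 for aged replicates 1 and 2, and -23.8 to -16.2 for young ones). The genes called numbered 112 between aged and young livers, 147 between treated and aged livers (42.2% of them higher) and 699 between treated and young livers (37.6% higher). With median-of-ratios scaling the shares higher in treated livers were 69.0% and 63.3%, and with quantile normalization 61.1% and 49.8%. Median-of-ratios scaling moved the median log2 fold change of all genes between treated and young livers from -0.10 to 0.02. In bulk liver, fewer cells of a type and less RNA per cell cannot be told apart.

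The promoters of Mt2 and Slc30a10 are shown because they hold the most matches to the metal response element in the 250 bases searched, while their transcripts differed very unequally between libraries. That order covers only the windows available, and Slc39a14 had none. Each is the 250 bases before a transcript start in the RefSeq table of build GRCm38.p6, on the plus strand, at chr8:94172368-94172617 and chr1:185454598-185454847. Capitals mark matches to the core of the element, spelled TGCACNC or TGCGCNC and searched on both strands.
Mt2: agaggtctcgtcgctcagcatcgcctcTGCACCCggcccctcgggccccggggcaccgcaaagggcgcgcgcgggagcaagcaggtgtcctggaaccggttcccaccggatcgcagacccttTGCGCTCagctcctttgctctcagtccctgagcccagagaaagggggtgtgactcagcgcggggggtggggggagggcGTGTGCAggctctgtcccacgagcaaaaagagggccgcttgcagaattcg
Slc30a10: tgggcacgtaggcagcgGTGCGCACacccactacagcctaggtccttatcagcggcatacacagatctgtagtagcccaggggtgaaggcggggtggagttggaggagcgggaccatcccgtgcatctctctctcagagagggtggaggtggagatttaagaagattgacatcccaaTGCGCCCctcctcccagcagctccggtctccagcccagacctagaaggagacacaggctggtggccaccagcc
The core matched at 3 places before Mt2 and at 3 before Slc30a10, 2 of which overlap on opposite strands. It matched at 1 place before Mt1 (23 to 17 bases before the start) and at 1 before Slc30a1 (43 to 37 bases before it, on the opposite strand). Of all 32851 RefSeq windows of this length 21.4% held at least 1 match and 1.26% held 3 or more. Mtf1 had none, and 1 of the 2 windows of Slc39a8 had 1. With the 50 bases after the start included, a choice made after the matches were seen, Mt1 had 3 matches (1.97% of windows had as many or more), Mt2 4 (0.517%), Slc30a10 3 and Slc30a1 2 (7.11%). RefSeq places Mt1 at chromosome 8, 94178883 to 94180327, and Slc30a1 at chromosome 1, 191906697 to 191913248, so the starts used for their windows lie within the annotated genes. Their windows thus lie partly within the genes, and their matches cannot be ranked against those of Mt2 and Slc30a10. Mt2 lies at 94172618 to 94173567, 5315 bases before Mt1, with Mt3 and Mt4 on the same side. No word of 31 bases, the default word length of kallisto, was shared between the GENCODE transcripts of Mt1 and Mt2. At most 0.622% of such words of any of the 7 genes (Slc39a14) occurred in transcripts of another gene, so these genes had nearly all of their sequence to themselves.

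Mt1 was at 57.6, 95.2 and 94.6 TPM in young replicates 1, 2 and 3, at 1706, 1057 and 22.9 TPM in aged replicates 1, 2 and 3, and at 2153, 2409 and 2005 TPM in treated ones. Mt2 was at 20.4, 38.3 and 44.2 TPM in young, at 1835, 1044 and 15.2 TPM in aged and at 2229, 2690 and 2046 TPM in treated replicates 1, 2 and 3. All 3 treated livers were high and all 3 young livers were low, while the aged group held both states: replicates 1 and 2 lay near the treated livers and replicate 3 lay below every young liver. Within the aged group the highest library exceeded the lowest 74.5-fold in Mt1 and 121-fold in Mt2, against 1.65-fold and 2.17-fold among young and 1.20-fold and 1.31-fold among treated livers. Among the 10161 genes tested, the SD of the log2 values of the aged group was the 6th highest for Mt2 (3.75) and the 8th highest for Mt1 (3.39).

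**Figure D1:**
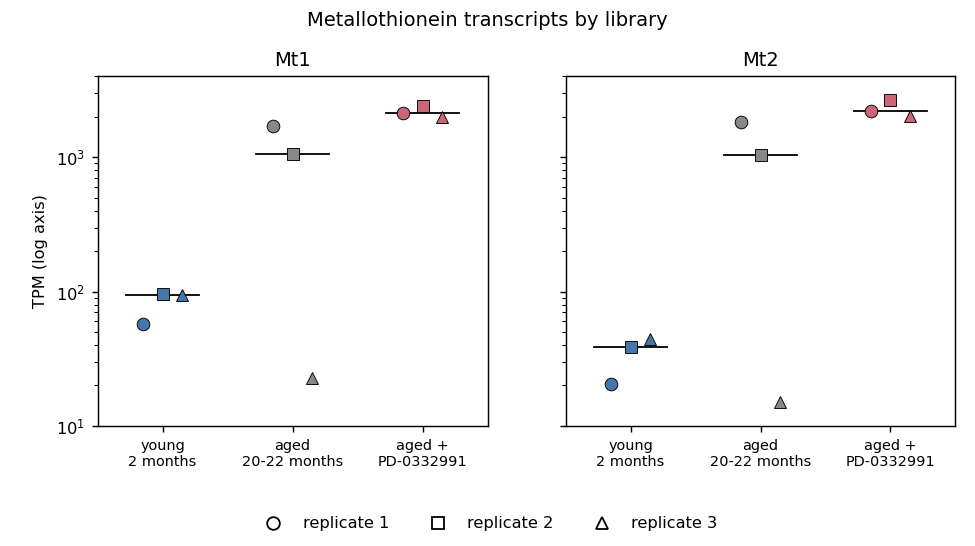
TPM of Mt1 and Mt2 on a log axis in each of the 9 libraries, by group, with a symbol for each replicate number and a line at the group's median. Aged replicate 3 sits at 22.9 TPM (Mt1) and 15.2 TPM (Mt2), below all young libraries, while the treated libraries sit between 2005 and 2690 TPM.

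Between aged and young livers neither metallothionein gene passed the threshold, and the groups overlapped. Mt1 averaged 82.5 ± 21.5 TPM in the young and 929 ± 849 TPM in the aged group (SD, n = 3, as for all means given). Its log2 fold change, on the log2(TPM + 0.5) scale used throughout, was 2.11 ± 1.59 (SE; limma, adjusted p = 0.599). Mt2 averaged 34.3 ± 12.4 and 965 ± 913 TPM (log2 fold change 3.23 ± 1.77, limma adjusted p = 0.461). These values turned on aged replicate 3. Without it the log2 fold changes were 4.05 ± 0.26 for Mt1 (limma adjusted p = 0.000244) and 5.39 ± 0.38 for Mt2 (0.00143), and aged replicates 1 and 2 averaged 16.7 times the young mean in Mt1 and 42.0 times in Mt2. Without aged replicate 1 they were 0.96 and 1.95, and without aged replicate 2 they were 1.30 and 2.36, with limma adjusted p of 0.68 or more.

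Between treated and aged livers the metallothioneins were higher in every treated library than in any aged one, and they did not pass either. Mt1 averaged 2189 ± 205 TPM in treated livers (log2 fold change against aged 2.65 ± 1.59, limma adjusted p = 0.434) and Mt2 2322 ± 332 TPM (2.89 ± 1.77, adjusted p = 0.443). The lowest treated library exceeded aged replicate 1 by 1.18-fold in Mt1 and 1.11-fold in Mt2. Without aged replicate 3 the log2 fold changes were 0.70 ± 0.26 and 0.74 ± 0.38 (limma adjusted p = 0.187 and 0.342), with aged replicates 1 and 2 as the only untreated livers of that age. Without aged replicate 1 they were 3.80 and 4.17 and without aged replicate 2 they were 3.45 and 3.77, with no call. The size of the difference between treated and untreated aged livers thus ranged widely with the aged library left out.

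Between treated and young livers the difference was the largest, and its call depended on how the spread was pooled. These livers differ in both age and treatment, which cannot be told apart here or wherever this comparison is used below. The lowest treated library exceeded the highest young one 21.0-fold in Mt1 and 46.3-fold in Mt2. The log2 fold changes were 4.75 ± 1.59 for Mt1 (limma adjusted p = 0.134) and 6.12 ± 1.77 for Mt2 (0.0994). The fit of all 9 libraries pools the spread of the 3 groups, the aged group included. A fit of the 6 treated and young libraries alone gave the same fold changes with SEs of 0.19 and 0.30 and limma adjusted p of 2.96e-06 and 0.000168. Without aged replicate 3 the adjusted p were 2.21e-05 and 0.000226, and with array weights they were 0.0331 and 0.0217.

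**Figure D2:**
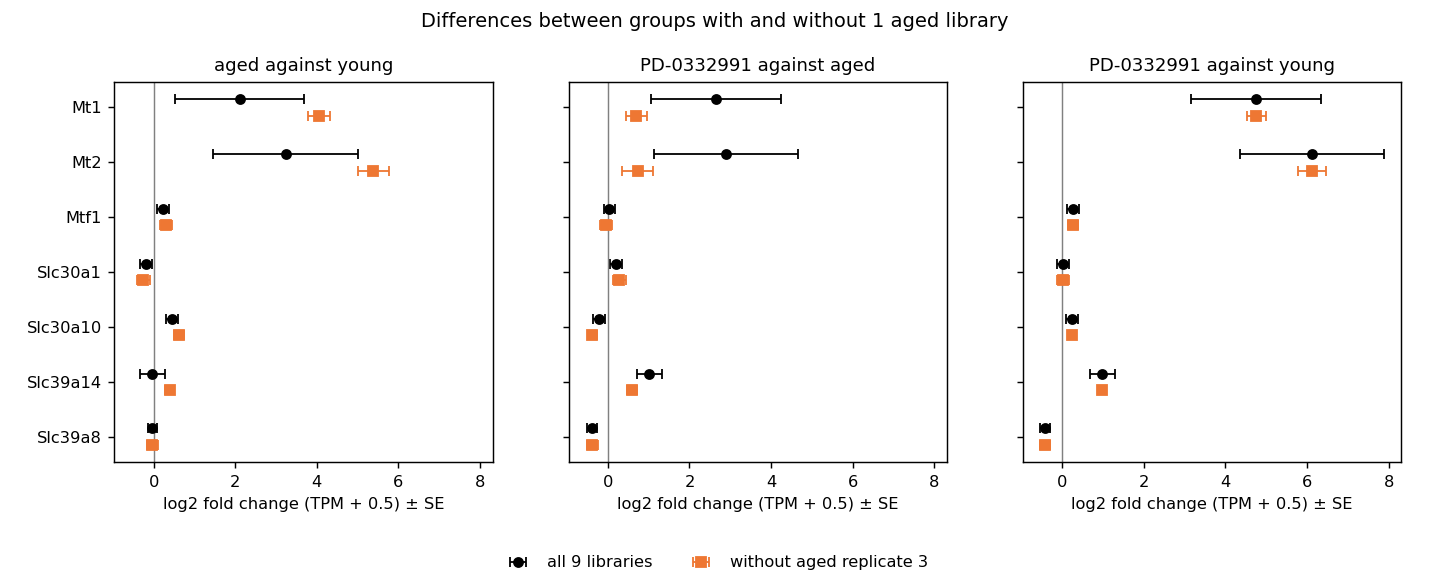
Log2 fold change ± SE of the 7 genes in the 3 comparisons, from limma on all 9 libraries (black) and without aged replicate 3 (orange), with a grey line at 0. Without that library the value of Mt1 moves from 2.11 to 4.05 for aged against young and from 2.65 to 0.70 for treated against aged livers, while both fits give 4.75 for treated against young livers.

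The balance of the metallothionein transcripts also differed between livers. Mt2 stood at 0.354, 0.403 and 0.467 times Mt1 in young replicates 1, 2 and 3, at 1.08, 0.988 and 0.663 times in aged ones, and at 1.04, 1.12 and 1.02 times in treated ones. Young livers thus held less Mt2 than Mt1, treated livers held slightly more Mt2, and aged replicate 3 lay between, although its Mt1 level was the lowest of all 9. Together the transcripts took 0.0147% to 0.0255% of the listed TPM in young, 0.634%, 0.384% and 0.00665% in aged, and 0.713% to 0.931% in treated livers. By mean level Mt2 ranked 1665th of 23440 genes in young and 31st in treated livers, and Mt1 874th and 33rd. Of the other metallothionein genes, Mt4 was listed at 0 in all 9 libraries, and Mt3 only in aged replicates 2 and 3 above 0 (0.303 and 0.225 TPM).

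Mtf1, the gene of the zinc sensor, differed little by comparison. It was at 2.51, 2.53 and 2.30 TPM in young, 3.41, 2.87 and 2.61 TPM in aged and 3.09, 3.29 and 2.76 TPM in treated replicates 1, 2 and 3. Every aged and every treated library lay above every young one, and aged and treated libraries overlapped. The log2 fold changes were 0.23 ± 0.14 for aged against young (limma adjusted p = 0.475), 0.04 ± 0.14 for treated against aged (0.909; -0.04 without aged replicate 3) and 0.27 ± 0.14 for treated against young livers (0.259).

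Slc30a1, the zinc exporter of the plasma membrane and a textbook target of MTF1, lay between 4.60 and 7.78 TPM over the 9 libraries, while Mt2 lay between 15.2 and 2690 TPM. Slc30a1 was at 6.24, 6.45 and 6.21 TPM in young, 4.60, 5.85 and 6.19 TPM in aged and 5.50, 7.78 and 6.14 TPM in treated replicates 1, 2 and 3. Aged libraries lay just below young ones, and treated libraries overlapped both. The lowest of all 9 values was in aged replicate 1, where Mt1 was at 1706 TPM. The log2 fold changes were -0.18 ± 0.15, 0.20 ± 0.15 and 0.02 ± 0.15 for aged against young, treated against aged and treated against young livers (limma adjusted p = 0.619, 0.50 and 0.936).

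Slc30a10, which exports manganese from hepatocytes and other cells, was highest in aged livers. It was at 6.91, 6.88 and 7.70 TPM in young, 11.8, 10.8 and 7.81 TPM in aged and 8.91, 8.31 and 8.55 TPM in treated replicates 1, 2 and 3. Aged replicates 1 and 2 stood above the other 7 libraries, aged replicate 3 was just above the highest young library, and treated libraries lay above all young ones. The log2 fold change for aged against young livers was 0.46 ± 0.14 (limma adjusted p = 0.165). It passed without aged replicate 3 (0.62 ± 0.12, adjusted p = 0.0088) and with array weights (0.57, adjusted p = 0.0245). Treated and aged livers differed by -0.21 ± 0.14 (limma adjusted p = 0.469; -0.38 and 0.0984 without aged replicate 3), and treated and young livers by 0.25 ± 0.14 (0.312).

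Slc39a14, the acute phase metal importer of hepatocytes, was highest in treated livers. It was at 33.9, 29.1 and 29.8 TPM in young, 44.1, 37.4 and 16.5 TPM in aged and 63.5, 65.4 and 55.6 TPM in treated replicates 1, 2 and 3. Every treated library lay above the other 6, and aged replicates 1 and 2 lay above the young livers while aged replicate 3 was the lowest of all 9, as it was for Mt1 and Mt2. For treated against aged livers the log2 fold change was 1.01 ± 0.31 (limma adjusted p = 0.142), and without aged replicate 3 it was 0.59 ± 0.12 and passed (0.0199). For treated against young livers it was 0.98 ± 0.31 (limma adjusted p = 0.0917), and it passed in the fit of those 6 libraries alone (0.000168), with array weights (0.0137), without aged replicate 1 (0.0457) and without aged replicate 3 (0.000226). Aged and young livers differed by -0.03 ± 0.31 (limma adjusted p = 0.974), and by 0.39 without aged replicate 3 (0.0741).

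Slc39a8, a zinc and manganese importer related to Slc39a14, was lowest in treated livers. It was at 5.85, 5.76 and 5.81 TPM in young, 5.0, 6.39 and 5.72 TPM in aged and 4.13, 4.32 and 4.21 TPM in treated replicates 1, 2 and 3. Every treated library lay below the other 6, and aged libraries lay on both sides of the young ones. The log2 fold change of treated against young livers was -0.42 ± 0.12 (limma adjusted p = 0.0588), and it passed in the fit of those 6 libraries alone (0.0354), with array weights (0.0282) and without aged replicate 3 (0.0421). Treated and aged livers differed by -0.39 ± 0.12 (limma adjusted p = 0.127) and aged and young livers by -0.03 ± 0.12 (0.941). With median-of-ratios scaling the treated and young livers differed by -0.30 (adjusted p = 0.15).

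**Figure D3:**
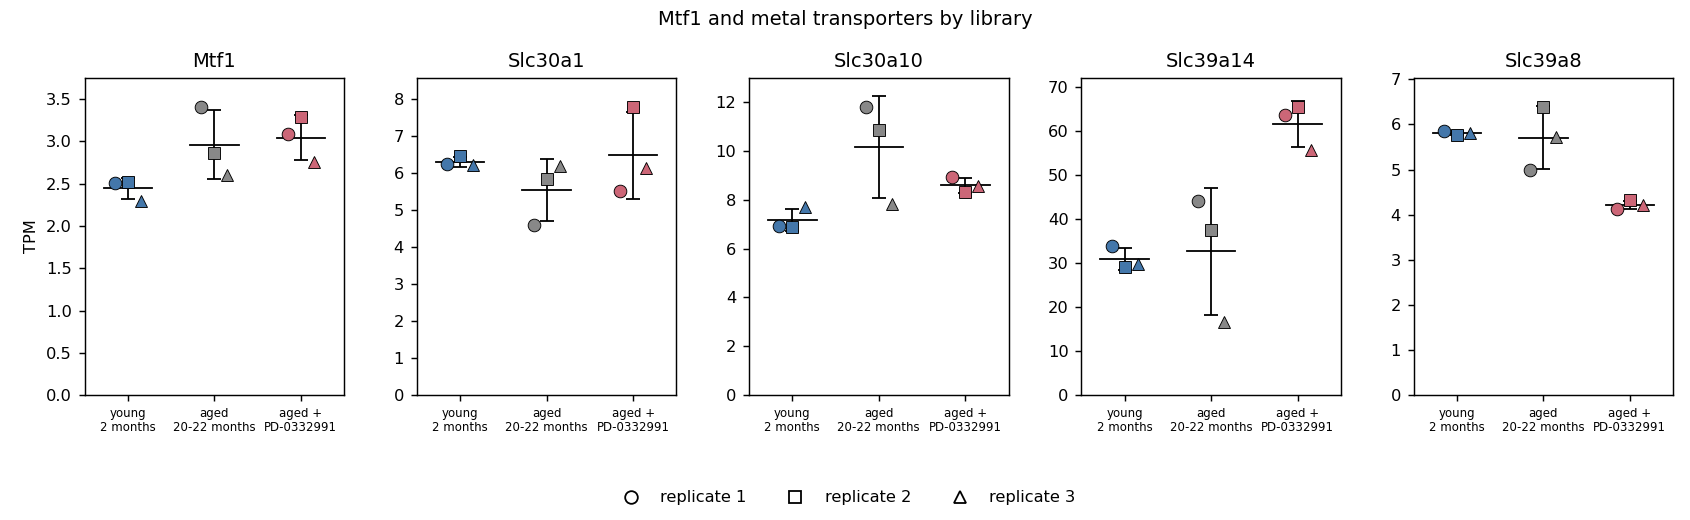
TPM of Mtf1, Slc30a1, Slc30a10, Slc39a14 and Slc39a8 in each of the 9 libraries, with symbols for the replicate numbers and bars for the group mean ± SD (n = 3), each panel on its own axis from 0. Slc39a14 is higher (55.6 to 65.4 TPM) and Slc39a8 lower (4.13 to 4.32 TPM) in the treated libraries than in the other 6.

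In all, none of the 7 genes passed the limma threshold in any of the 3 comparisons with all 9 libraries fitted, where 1.1%, 1.45% and 6.88% of all genes tested were called for aged against young, treated against aged and treated against young livers. At an unadjusted p under 0.05 there were 1 (Slc30a10), 2 (Slc39a14 and Slc39a8) and 4 (Mt1, Mt2, Slc39a14 and Slc39a8), against 15%, 18.2% and 24.8% of all genes. Split by direction, the shares called higher were 0.65%, 0.61% and 2.59% of all genes and the shares called lower 0.453%, 0.837% and 4.29%. Groups did not overlap in 3, 4 and 6 of the 7 genes, against 18.4%, 22.4% and 33.9% of all genes tested. The first group was higher without overlap in 2, 3 and 5 of the 7 (8.82%, 5.72% and 9.55% of all genes) and lower in 1 each time (9.57%, 16.7% and 24.4%). The median log2 fold change of the 7 genes was 0.23, 0.20 and 0.27, beside -0.01, -0.09 and -0.10 over all genes. The comparisons share libraries, so their values are not independent of each other.

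The other zinc transporters gave 1 higher and 1 lower gene, both between treated and young livers, while limma called none in the other 2 comparisons (3 at an unadjusted p under 0.05). Of 8 other Slc30 genes 5 reached the level for testing, and of 12 other Slc39 genes 7 did. Slc30a5, which brings zinc into the secretory pathway, was at 9.85, 9.03 and 11.3 TPM in young, 17.2, 15.8 and 7.88 TPM in aged and 20.4, 26.3 and 22.6 TPM in treated replicates 1, 2 and 3. It thus had the order of the metallothioneins, with aged replicate 3 lowest of all 9. Its rise from young to treated livers was 1.16 ± 0.25 on the log2 scale (limma adjusted p = 0.0232), but it was not called when any 1 young library (0.0607 to 0.0844) or treated replicate 2 or 3 (0.0994 and 0.0737) was left out. Slc39a4, the zinc importer mutated in acrodermatitis enteropathica, fell from 38.7, 24.3 and 42.6 TPM in young to 13.6, 14.3 and 14.4 TPM in treated replicates 1, 2 and 3, with 26.7, 18.4 and 14.3 TPM in aged ones. Its log2 fold change was -1.25 ± 0.24 (limma adjusted p = 0.016), but it was not called when young replicate 1 or 3 (0.0674 and 0.0615) or treated replicate 2 or 3 (0.0679 and 0.0559) was left out. Slc39a7, an importer of the endoplasmic reticulum (32.2 to 48.0 TPM), and Slc39a1 (27.4 to 33.5 TPM) were the most abundant of the others. The median log2 fold changes between treated and young livers were -0.24 over the Slc30 and -0.12 over the Slc39 genes tested.

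Of 6 other genes reported as MTF1 targets, 5 were tested, and 2 (Ndrg1 and Gclc) fell between young and treated livers. Limma called none between aged and young livers (at an unadjusted p under 0.05, 1 was higher and 3 were lower) or between treated and aged livers (1 lower). Those above 0 numbered 1 of 5 for aged against young, 2 for treated against aged and 0 for treated against young livers. The sixth, Slc39a10, was too low to be tested, at 0.357 to 0.466 TPM in young, 0.446 to 0.700 TPM in aged and 0.564 to 0.743 TPM in treated livers. Their median log2 fold changes were -0.56, -0.22 and -0.40 in the 3 comparisons. Ndrg1, a stress-responsive gene, was at 6.34, 8.17 and 6.0 TPM in young, 3.16, 4.05 and 3.26 TPM in aged and 3.55, 2.13 and 3.21 TPM in treated replicates 1, 2 and 3. Its log2 fold change from young to treated livers was -1.10 ± 0.18 (limma adjusted p = 0.00864). Gclc, the catalytic subunit of the enzyme that starts glutathione synthesis, fell from 96.3 to 48.9 TPM on average (-0.95 ± 0.19, limma adjusted p = 0.0177), but was not called when young replicate 1 or 3 (0.067 and 0.0617) or treated replicate 2 or 3 (0.0783 and 0.0565) was left out.

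Acute phase genes, which hepatocytes express during inflammation, lay higher in treated livers than in young ones, and on average also in aged livers. Some followed the metallothioneins library by library more closely than others. Of 25 genes tested 6 (Socs3, Lbp, Crp, Saa4, Hamp and Fgg) rose between young and treated livers and none fell. In 25 of 25 the treated libraries lay above all young ones, against 9.55% of all genes tested. All 6 calls were lost without treated replicate 2 (limma adjusted p = 0.063 to 0.123), and Hamp and Fgg also with quantile normalization (0.21 and 0.132). Losses of these calls without other single libraries are not given here. Calls were lost in general without treated replicate 2: 151 genes were called between treated and young livers, against 699 with all 9 libraries. None was called by limma between aged and young or between treated and aged livers, where 25 and 24 lay above 0. An unadjusted limma p under 0.05 was seen in 5 and 4 of 25, against 15% and 18.2% of all genes. Without overlap 3 and 4 were higher, against 8.82% and 5.72% of all genes. In aged replicate 3 Fgb was at 1785 TPM, below every young liver (1945 to 2372 TPM), while Hamp was at 4139 TPM, above them (2043 to 2428 TPM). The median log2 fold changes were 0.52 for aged against young, 0.44 for treated against aged and 1.12 for treated against young livers. Saa1, a major acute phase protein, was at 38.3, 1482 and 52.3 TPM in young, 6008, 222 and 123 TPM in aged and 3099, 7204 and 2730 TPM in treated replicates 1, 2 and 3. Lcn2, an iron-sequestering acute phase protein, was at 1.04, 19.5 and 1.66 TPM in young, 481, 24.1 and 7.75 TPM in aged and 146, 504 and 124 TPM in treated ones. Aged replicate 2 had 1057 TPM of Mt1 with 222 TPM of Saa1, while young replicate 2 had 95.2 TPM of Mt1 with 1482 TPM of Saa1, so high Saa1 and high Mt1 did not always occur in the same liver. Steap4, a metalloreductase gene of the same list named after its values were seen, was at 27.9, 20.9 and 29.5 TPM in young, 133, 105 and 17.2 TPM in aged and 160, 218 and 166 TPM in treated replicates 1, 2 and 3. It thus had the division of the aged group seen in Mt1, with aged replicate 3 below every young liver. Socs3, an interleukin-6-induced inhibitor of signalling, rose from 4.44, 4.91 and 2.41 TPM in young to 18.6, 20.8 and 15.2 TPM in treated replicates 1, 2 and 3, with 6.98, 7.37 and 2.72 TPM in aged ones (log2 fold change 2.12 ± 0.36, limma adjusted p = 0.0128).

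The 3 genes most like each metallothionein gene were found by Pearson's r of the log2 values over the 9 libraries, a description over libraries that share 3 groups. For Mt1 they were Mt2 (r = 0.994), the fibrinogen gene Fgg (0.988) and Mettl16 (0.985), and for Mt2 they were Mt1, Fgg (0.989) and Il1r1 (0.987), the receptor of interleukin-1. Il1r1 was at 6.09, 5.35 and 8.26 TPM in young, 29.7, 28.1 and 4.87 TPM in aged and 28.0, 33.3 and 26.2 TPM in treated replicates 1, 2 and 3. Aged replicates 1 and 2 lay within the treated range of Il1r1 and aged replicate 3 below every young liver, the same division of the aged group as in Mt1 and Mt2. Il1r1 and Fgg were picked here for their likeness to Mt1 or Mt2 over these same libraries, so a shared division follows from the choice. Fgg was at 3577, 3471 and 1930 TPM in aged replicates 1, 2 and 3, against 2035 to 2420 TPM in young and 3693 to 3854 TPM in treated livers. For Slc39a14 the nearest genes were Bsdc1 (r = 0.962), Nat14 (0.960) and Myd88 (0.953), an adaptor of interleukin-1 and Toll-like receptors. Slc39a8 was nearest to Tdrp (0.983), Slc30a10 to Ints5 (0.975), Mtf1 to Tmem176b (0.968) and Slc30a1 to Ncf1 (0.914). Among the 7 genes themselves, r was 0.910 for Mt1 with Slc39a14, 0.799 with Mtf1, 0.669 with Slc30a10, -0.172 with Slc30a1 and -0.696 with Slc39a8.

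**Figure D4:**
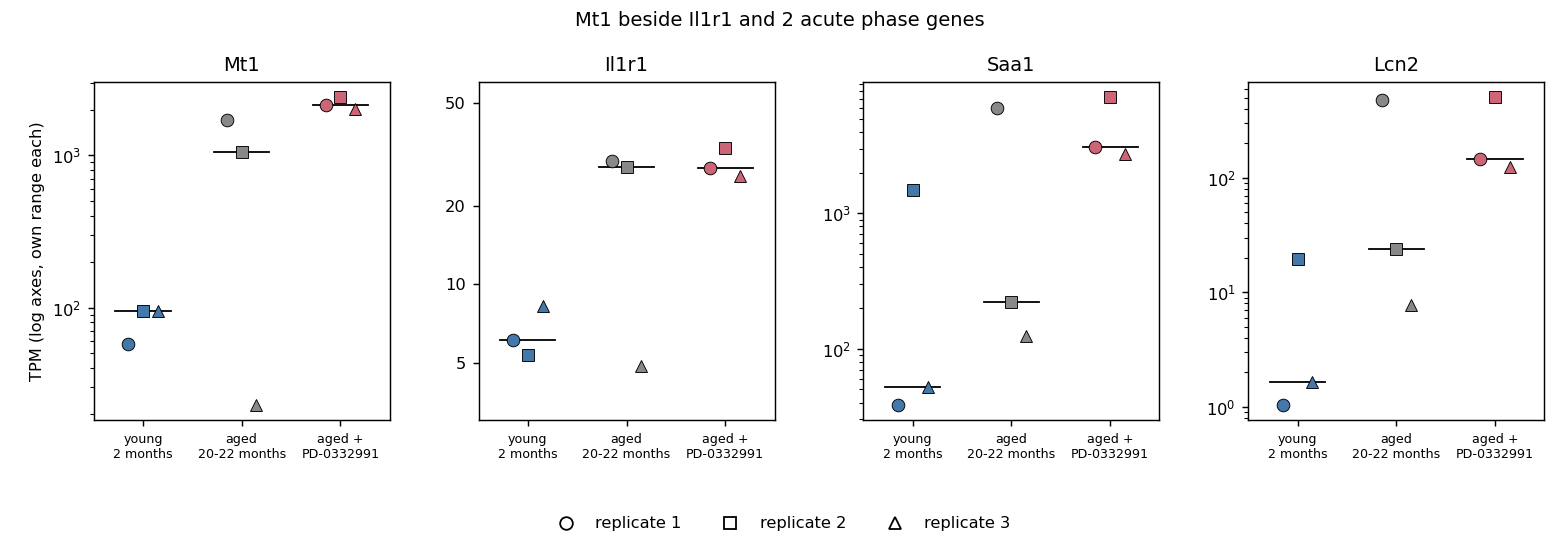
TPM of Mt1, Il1r1, Saa1 and Lcn2 in each of the 9 libraries, on log axes with their own ranges, with a line at the group's median. Il1r1 was picked for its likeness to Mt2 over these libraries. Aged replicate 2 is high in Mt1 (1057 TPM) and Il1r1 (28.1 TPM) and low in Saa1 (222 TPM), and young replicate 2 is low in Mt1 (95.2 TPM) and high in Saa1 (1482 TPM).

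Glucocorticoid-induced genes went both ways. Of 14 tested, 1 was called for treated against aged and 2 for treated against young livers: Per1 rose between aged and treated livers, and Per1 rose and Tdo2 fell between young and treated livers, with medians of 0.04, 0.01 and -0.02 in the 3 comparisons. The call of Tdo2 was lost with median-of-ratios scaling (limma adjusted p = 0.0809) and without treated replicate 2 (0.142), and that of Per1 against young livers without treated replicate 2 (0.0803). Fkbp5, a chaperone of the glucocorticoid receptor, was at 6.07, 5.50 and 7.74 TPM in young, 10.1, 12.2 and 4.68 TPM in aged and 5.84, 7.17 and 5.96 TPM in treated replicates 1, 2 and 3. It was thus high in aged replicates 1 and 2 and lowest in aged replicate 3, like Mt1, but in the treated livers it lay within the range of the young ones. Zbtb16, of the same list and named after its values were seen, was high in all treated livers and lowest in aged replicate 3. It was at 1.18, 0.864 and 2.27 TPM in young, 4.26, 3.65 and 0.683 TPM in aged and 5.06, 5.06 and 6.05 TPM in treated replicates 1, 2 and 3. Tat was at 418, 187 and 697 TPM and Pck1 at 418, 235 and 797 TPM in aged replicates 1, 2 and 3, highest where Mt1 was lowest. In treated livers Tat was at 629 to 789 TPM and Pck1 at 813 to 1067 TPM, above all young livers (310 to 426 and 382 to 482 TPM). Treated livers lay above all young ones in 5 of the 14 genes and below all of them in 3, against 9.55% and 24.4% of all genes tested. Tsc22d3 was at 25.6 to 47.5 TPM in young, 24.9, 16.9 and 35.8 TPM in aged and 27.8 to 34.7 TPM in treated livers, with its highest aged value in replicate 3. Per1, a clock gene that glucocorticoids also induce, rose from 2.28 TPM in aged to 5.02 TPM in treated livers on average (log2 fold change 0.99 ± 0.21, limma adjusted p = 0.0424). That call was lost with no filter on low values (0.093), in the fit of those 6 libraries alone (0.117), with the replicate block (0.0793) and without young replicate 1, 2 or 3 (0.0713 to 0.0715), aged replicate 2 (0.117) or treated replicate 2 or 3 (0.161 and 0.156).

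Markers of other cell types were read beside these values. The summed level of the 9 neutrophil markers listed of 10 was 3.34 to 4.13 TPM in young, 26.7, 9.99 and 10.4 TPM in aged and 24.9 to 35.0 TPM in treated livers, and 3 of 3 tested rose between young and treated livers. Most of this sum was S100a8 and S100a9. Elane, too low to be tested, was instead highest in aged livers (0.297 to 0.493 TPM, against 0.0543 to 0.212 TPM in treated ones). Aged replicates 2 and 3 had nearly the same neutrophil sum, while their Mt1 levels were 46.1-fold apart. The part of neutrophil content in the metallothionein values was not tested. The sum of the 11 Kupffer cell and macrophage markers was 140 to 222 TPM in young, 131 to 197 TPM in aged and 127 to 134 TPM in treated livers, and 5 of 11 fell between young and treated livers. The sums of the 11 endothelial markers (74.3 to 100 TPM over all libraries) overlapped between the groups. Those of the 10 stellate cell markers (85.4 to 133 TPM), the 7 bile duct markers (9.07 to 22.8 TPM) and the 10 lymphocyte markers (2.21 to 8.61 TPM) were also low beside the hepatocyte sum. The stellate, bile duct and lymphocyte sums of all treated livers lay below those of all young ones. The largest parts of the stellate sum, Dcn and Ecm1, each overlapped between these groups. Dcn was at 43.5 to 52.4 TPM in young and 34.0 to 46.9 TPM in treated livers, and Ecm1 at 52.1 to 63.7 and 40.6 to 56.1 TPM. Of the 10 lymphocyte markers only 2 were tested. Most of the bile duct sum was Spp1 (13.5 to 18.9 TPM in young, 6.02 to 12.1 TPM in treated livers). Sox9 went the other way, at 0.397 to 0.746 TPM in young and 1.06 to 1.14 TPM in treated livers. Only 2 bile duct markers were tested, 1 above and 1 below 0 for treated against young livers. Only Alb was at 0 in all libraries among the markers listed. The part of macrophage content in the lower Slc39a8 of treated livers was not tested.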

How the data were processed

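The 9 tables hold a gene symbol and a TPM value per row. Per the submitters' processing notes, the authors estimated abundance with kallisto on build mm10 (GRCm38) and deposited TPM values, 1 table per library. Which kallisto version and annotation were used, and how transcripts became genes, is not given in the sources used here. Per the labels' protocols, libraries were paired-end and made with an Illumina TruSeq RNA kit, with no statement on strand. TPM keeps no depth, so no counting intervals are given.

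Of 23444 rows, 4 with repeated symbols were left out, and no libraries were identical. Genes at or above 1 TPM in 3 or more libraries (10161, among them all 7 described) were fitted on log2(TPM + 0.5) with limma 3.58.1 in R 4.3.3. The fit used all 9 libraries, group as the only term, an intensity trend and robust variances, and gave two-sided contrasts. The threshold for a call was an adjusted p (Benjamini-Hochberg) below 0.05. When tested on simulated data with 200 genes changed, the treated against aged contrast recovered 31.4% of changes of 0.5 (70 genes), 85.5% of 1 (76 genes) and 94.4% of 2 (54 genes) on the log2 scale. Of the genes called there 5.48% were false, against 7.53% for aged against young and 2.72% for treated against young livers. The simulated spread of a gene was the same in all groups, with no library set apart. Whether each library is a mouse of its own is not stated in the labels, and p-values then measure only the spread between samples, which may be technical.

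The 7 genes, the lists (171 genes, 168 found by symbol, 2 by synonym and 1 not listed) and the rule for naming genes were chosen with earlier results of these data known. The rule took all 7 genes, up to 6 called and up to 3 other members of each list, and the 3 genes nearest to each of the 7 by Pearson's r, predicted and clone-named genes left out. It added Saa1, Saa2, Lcn2, Fkbp5, Tsc22d3 and Per1. Promoters are from RefSeq (GRCm38.p6, the build of the files), with windows for 6 of the 7 genes. No test was run over a list. Alternatives changed the pseudocount, filter, scaling, weights, libraries fitted and replicate block, or left out 1 library at a time.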

Additional observations from a re-analysis of the deposited data

How the results depend on the processing

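With 3 libraries per group, of unknown depth, 1 library can decide a call. Without 1 library at a time the calls numbered 15 to 696 for aged against young, 7 to 392 for treated against aged and 151 to 1263 for treated against young livers, the highest each time without aged replicate 3. The lowest came without young replicate 1 for aged against young livers, and without treated replicate 2 for both comparisons of treated livers. In the same order the calls were 62, 29 and 495 with no filter on low values, 490, 271 and 1354 with array weights, and 49, 35 and 1293 with only the 2 groups compared in the fit. The replicate numbers did not pair aged with young libraries, where same-numbered libraries correlated at -0.22 to -0.114. The correlations were -0.101 to 0.166 for treated with aged libraries and 0.0712 to 0.133 for treated with young ones. In the last comparison 6 of 6 libraries correlated best with their own number, as a hint only. With the replicate block the calls were 91, 60 and 492. Among the other named genes that were called with all 9 libraries, 97 of 375 values under an alternative lost their call, 78 of them with 1 library left out. These losses were not confined to treated replicate 2, the only library named above for several of these genes. None of the 7 genes was called with all 9 libraries, so a kept call there means staying uncalled. For the 7 genes, 348 of 375 values under an alternative kept direction and call, 18 became called and 9 changed sign. The sign changes were all of values near 0: Slc39a14 for aged against young (0.23 with array weights, 0.03 without young replicate 1, 0.39 without aged replicate 3, and -0.30 to 0.39 over single libraries left out), Slc39a8 for aged against young (0.054 without aged replicate 1), Mtf1 for treated against aged (-0.046 with array weights, -0.035 without aged replicate 3, -0.011 without treated replicate 2, and at most 0.13 without any 1 library) and Slc30a1 for treated against young livers (-0.0099 with array weights, -0.11 without treated replicate 2, and at most 0.13 without any 1 library). Mt1 and Mt2 kept their direction in all 18 alternatives of each comparison, at 0.96 to 4.05 and 1.95 to 5.39 for aged against young, 0.70 to 3.80 and 0.74 to 4.17 for treated against aged, and 4.52 to 4.88 and 5.79 to 6.34 for treated against young livers. The self-test recovered most changes of 1 or more on the log2 scale at this number of libraries. Its simulated data held no library set apart like aged replicate 3, so that share does not carry over to Mt1 and Mt2. The cause of the lost calls was not tested.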

Other observations

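Of 16 tested genes of copper and manganese handling beyond the 7, limma called none between aged and young livers (1 at an unadjusted p under 0.05). By the same threshold 1 fell between aged and treated livers and 2 between young and treated livers. For treated against young livers 3 of 16 lay above 0. Without overlap 2 (Slc11a2 and Cp, not called) were higher and 5 lower there, against 9.55% and 24.4% of all genes tested. Atp7b, a copper exporter, lost its call without treated replicate 2 (limma adjusted p = 0.109), and Slc40a1, the iron exporter ferroportin that also carries manganese, was the gene called in both. It was at 29.7, 25.9 and 34.8 TPM in young, 21.5, 24.1 and 19.6 TPM in aged and 9.77, 11.2 and 10.3 TPM in treated replicates 1, 2 and 3, and every treated library lay below the other 6. Its log2 fold changes were -1.02 ± 0.13 against aged (limma adjusted p = 0.0116) and -1.48 ± 0.13 against young livers (0.000526), and both calls held under all 18 alternatives. Unlike Mt1, it showed no separation of aged replicate 3 from the other aged livers.

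NRF2 targets and antioxidant genes, many of which respond to the same metals and oxidants as the metallothioneins, went both ways. Of 13 tested, 1 rose between young and aged livers, limma called none between aged and treated livers (6 at an unadjusted p under 0.05), and Hmox1 and Txnrd1 rose and Ephx1, Gclc and Gclm fell between young and treated livers. These 5 calls were lost without treated replicate 2 (limma adjusted p = 0.0602 to 0.137), where 151 genes remained called of all tested, against 699 with all 9 libraries. Losses without other single libraries are given above for Gclc only, so treated replicate 2 need not be the only library that decides these calls. Hmox1, which breaks down heme, was at 7.91, 5.45 and 9.69 TPM in young, 12.8, 9.59 and 7.55 TPM in aged and 16.5, 19.2 and 16.9 TPM in treated replicates 1, 2 and 3 (log2 fold change of treated against young livers 1.17 ± 0.21, limma adjusted p = 0.0116). Gsta2, a glutathione transferase gene, was at 41.0, 34.3 and 40.4 TPM in young and 57.9, 75.3 and 78.6 TPM in aged replicates 1, 2 and 3, with its highest value in aged replicate 3, where Mt1 was lowest. Its rise with age (0.86 ± 0.14, limma adjusted p = 0.0199) was not called when any 1 young library (0.0573 to 0.0902) or aged replicate 2 (0.0638) was left out, or with no filter on low values (0.0562).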
